A study of Mus musculus with 4 samples.

Results

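The genes described here encode the machinery that docks and fuses secretory vesicles in mouse cells. They comprise the SNARE proteins and their partners, the synaptotagmins, Rab GTPases of the Rab3, Rab27, Rab11 and Rab30 to Rab39 groups, and granins. Members were chosen by symbol alone, as all syntaxins, syntaxin-binding proteins, VAMPs, SNAP-25 relatives, synaptotagmins, synaptotagmin-like proteins and these Rabs, with Cadps, Cadps2, Nsf, Napa and 5 granin genes added by name. This gave 99 of the 55467 gene IDs in the deposited tables, each with its own symbol. A mean of at least 1 FPKM (fragments scaled to transcript length and to the mapped fragments of the library) over the 4 libraries was reached by 70 of them, which were tested, and 29 lay below it. The untested 29 include 3 pseudogenes and 2 antisense transcripts of Rab11fip4, and 2 members, Vamp7-ps and Rab11fip4os2, were listed at 0 in every library.

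RNA came from primary cortical astrocytes of wild-type mice (WT, 2 libraries) and of CD38 knockout mice (CD38 KO, 2 libraries), cultured from pups 1 to 3 days old. The cells of both genotypes were grown for 14 days in medium with 10% serum, shaken for 12 h with the supernatant discarded, replated and harvested after 5 days, with no further treatment. The labels do not give the strain, the deleted exons, or whether the 2 libraries of a genotype came from separate animals or cultures, so p-values measure only the spread between these libraries, which may be technical, and a strain difference and the loss of Cd38 cannot be told apart. The series concerns astrocytic CD38 in synapse formation and social memory, and the comparison here asks which transcripts of the secretory machinery differ between the genotypes.

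Secretion ends when a SNARE on the vesicle (a VAMP) pairs with a syntaxin and a SNAP-25 relative on the target membrane and pulls the membranes together. Sec1/Munc18 proteins, encoded by Stxbp genes, assist this pairing, NSF with alpha-SNAP (Napa) takes spent complexes apart, and Rab GTPases direct vesicles to their place of fusion. Neurons couple fusion to calcium through synaptotagmins such as Syt1, with Snap25, Vamp2 and Stx1a, whereas astrocytes are known to rely largely on Snap23, Vamp3 and other broadly expressed relatives. CD38 is a surface enzyme that uses NAD+ to make messengers that release calcium from intracellular stores.

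The upstream sequences of 4 called members are shown first. Rab11fip1, Syt5, Cadps2 and Stx3, whose windows are not shown, changed more than Rab11a and Rab11b. Rab3d and Vamp8 had the smallest p among the lower and the higher members, and Rab11a and Rab11b are close paralogs that went in opposite directions. The windows are the 250 bases before the RefSeq start site on GRCm38.p6, at chr9:21918184-21918433, chr6:72390668-72390917, chr9:64737757-64738006 and chr17:33760487-33760736, all on the minus strand and written 5′ to 3′ in the direction of transcription. Capitals mark GC boxes (GGGCGG on either strand).
Rab3d: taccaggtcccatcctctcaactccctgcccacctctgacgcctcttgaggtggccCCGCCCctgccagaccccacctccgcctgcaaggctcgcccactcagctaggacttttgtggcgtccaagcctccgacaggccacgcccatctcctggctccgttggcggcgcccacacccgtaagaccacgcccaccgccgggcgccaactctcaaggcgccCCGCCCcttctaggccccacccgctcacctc
Vamp8: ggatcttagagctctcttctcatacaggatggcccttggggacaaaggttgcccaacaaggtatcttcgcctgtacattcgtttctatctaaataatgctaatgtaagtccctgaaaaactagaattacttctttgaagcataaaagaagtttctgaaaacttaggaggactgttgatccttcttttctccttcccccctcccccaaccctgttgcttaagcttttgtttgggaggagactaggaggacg
Rab11a: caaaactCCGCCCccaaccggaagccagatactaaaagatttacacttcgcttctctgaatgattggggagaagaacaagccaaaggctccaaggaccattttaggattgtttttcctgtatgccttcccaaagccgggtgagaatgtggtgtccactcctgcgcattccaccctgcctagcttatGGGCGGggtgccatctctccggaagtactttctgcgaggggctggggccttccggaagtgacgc
Rab11b: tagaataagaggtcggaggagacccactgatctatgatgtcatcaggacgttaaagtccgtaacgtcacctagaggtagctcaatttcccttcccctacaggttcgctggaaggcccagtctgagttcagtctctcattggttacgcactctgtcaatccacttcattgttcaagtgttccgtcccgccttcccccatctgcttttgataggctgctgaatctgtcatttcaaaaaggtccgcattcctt
Rab3d and Rab11a each hold 2 GC boxes, and Vamp8 and Rab11b hold none. The G and C content is 69.2% in Rab3d, 53.6% in Rab11a, 48.4% in Rab11b and 43.6% in Vamp8. None of the 4 windows holds the E-box CACGTG or the cyclic AMP response element TGACGTCA, which says only that these letters are not in these windows.

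Scg2 and Chgb, which encode the granins secretogranin II and chromogranin B, are shown because their windows hold the cyclic AMP response element, in capitals together with GC boxes. The windows lie at chr1:79440027-79440276 (minus strand) and chr2:132781392-132781641 (plus strand), and the element begins 68 and 72 bases before the RefSeq start site. In GENCODE M21 the genes begin farther upstream, at 79440120 for Scg2 and 132781278 for Chgb. By that annotation both elements, and the whole Chgb window, lie within the genes.
Scg2: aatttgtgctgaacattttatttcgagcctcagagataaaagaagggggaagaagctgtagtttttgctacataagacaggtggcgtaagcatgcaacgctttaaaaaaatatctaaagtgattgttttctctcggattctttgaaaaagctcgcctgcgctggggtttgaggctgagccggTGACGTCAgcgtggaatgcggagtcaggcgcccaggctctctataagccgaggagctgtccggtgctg
Chgb: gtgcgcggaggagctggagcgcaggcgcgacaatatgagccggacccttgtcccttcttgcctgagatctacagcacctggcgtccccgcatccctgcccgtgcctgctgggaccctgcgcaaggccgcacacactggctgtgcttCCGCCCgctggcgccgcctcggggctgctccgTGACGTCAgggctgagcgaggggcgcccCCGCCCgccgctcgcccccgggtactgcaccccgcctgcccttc
The 250-base table had windows for 75 of the 99 members. The element TGACGTCA was found in 4 of these 75 members, 5.33%, namely Chgb, Scg2, Rab11fip3 and Stxbp3, and in 1.55% of all 32851 windows. The E-box CACGTG was present in 11 members, 14.7%, against 6.02% of all windows, and the GC box in 50 members, 66.7%, against 32.7%. A member can have several windows, so these shares are descriptions and were not tested. Of the members with TGACGTCA, Scg2 was too low for the genotype test described below, and Chgb, Rab11fip3 and Stxbp3 did not pass it. Cadps2 and Stxbp2 are the called members among those with CACGTG, of which Syt6 was not tested. Over all tested genes 14.4% were called, and with so few genes these counts are descriptions.

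The 4 libraries held an estimated 26834980 to 29091200 fragments. Cd38 was at 3.13 and 3.45 FPKM in WT and no more than 0.0222 FPKM in either CD38 KO library, so each library carried the Cd38 level of its label. The 12 astrocyte markers summed to 3083 to 3188 FPKM in WT and 2786 to 2807 FPKM in CD38 KO, with Gfap at 1198 to 1390 FPKM over all libraries, and of 11 tested markers 6 were called lower and 2 higher in CD38 KO. The defining neuronal markers Rbfox3 and Slc17a7 were at most 0.0652 and 0.304 FPKM, although the 12 neuron markers summed to 157.5 to 174.6 FPKM with Gad1, Stmn2, Gap43, Map2 and Tubb3 the most abundant. Gad1 was lower in CD38 KO (71.4 and 81.5 against 46.1 and 41.7 FPKM, limma adjusted p = 0.00334) and Stmn2 higher (30.7 and 28.8 against 54.8 and 56.1 FPKM, limma adjusted p = 0.000411). Endothelial and mural markers summed to 1.351 to 3.324 FPKM. Ependymal markers had a mean sum of 75.1 FPKM in WT and 91.3 FPKM in CD38 KO (3 of 4 tested called higher), and fibroblast and meningeal markers 1376 and 1686 FPKM (1 of 6 higher), nearly all of it Igfbp2. Oligodendrocyte lineage markers had a mean sum of 202 and 173 FPKM (2 of 7 lower). The 18 microglia and macrophage markers summed to 168 to 184 FPKM in WT and 909 to 1015 FPKM in CD38 KO, and all 16 tested ones were higher in CD38 KO. None of the 18 was at 0 in every library, while P2ry12 stayed at 0.243 to 0.633 FPKM and overlapped between the genotypes. In bulk RNA, fewer cells of a type and less RNA per cell cannot be told apart. The part of these marker differences in any of the member changes below, higher or lower, was not tested.

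**Figure D1:**
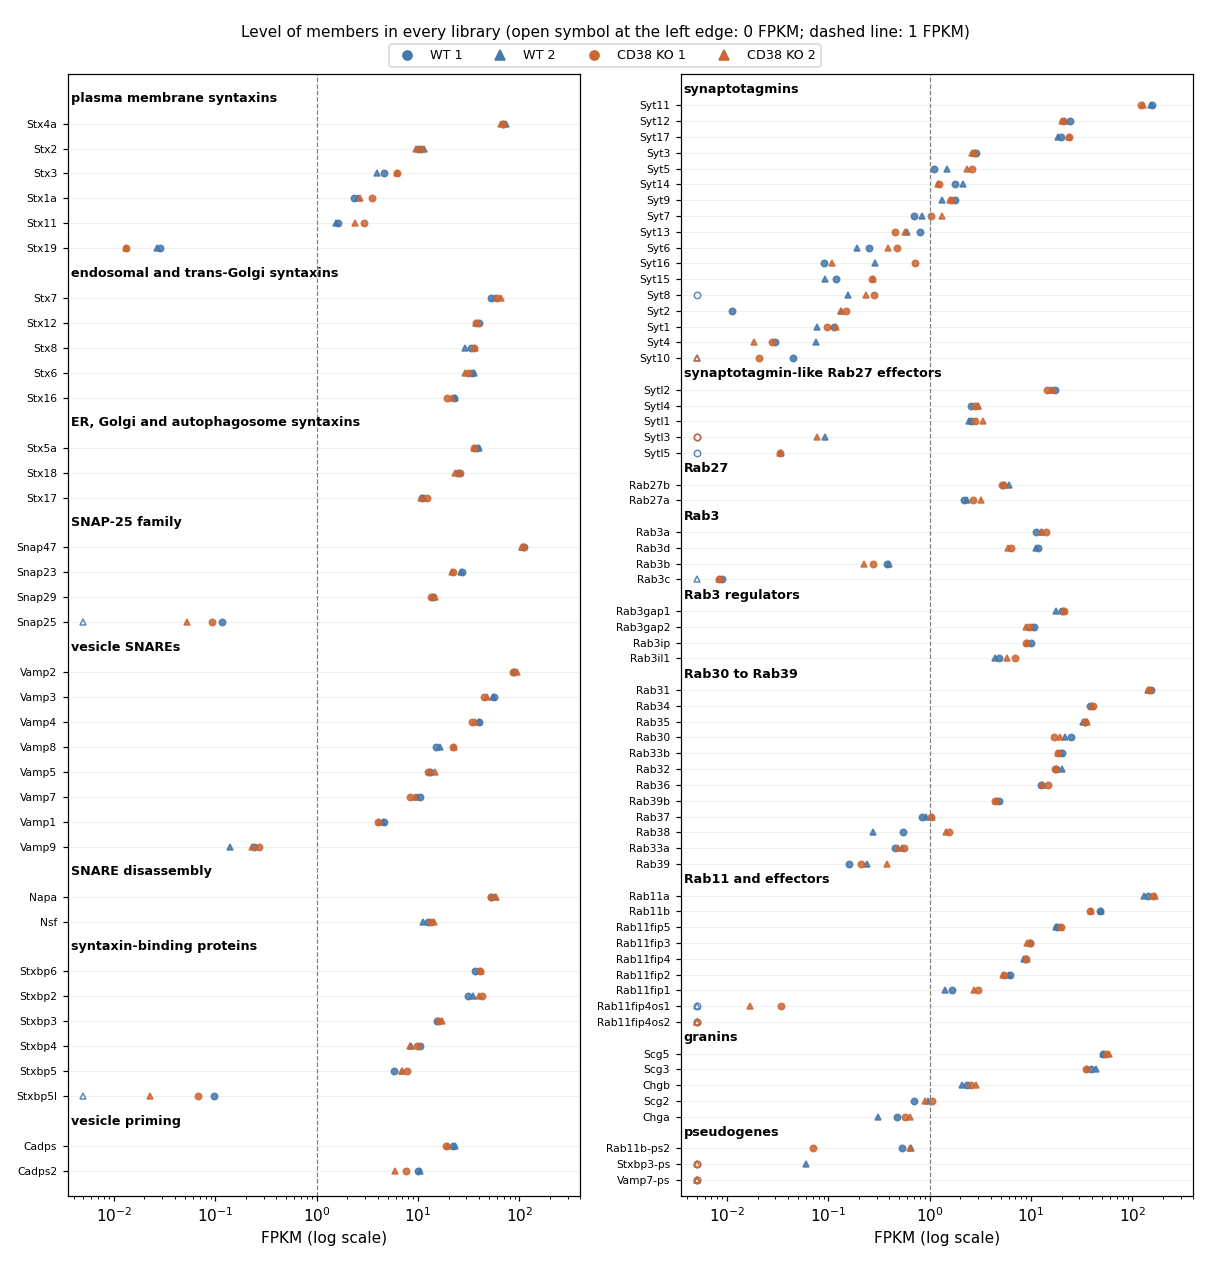
Level of 97 of the members in each library, in FPKM on a logarithmic axis, grouped by role and ordered by mean within a role. Circles and triangles are replicates 1 and 2, blue is WT and orange CD38 KO, open symbols at the left edge are values of 0, and the dashed line is the 1 FPKM needed for testing. Rab11a, Rab31, Syt11 and Snap47 are the 4 members with a mean over 100 FPKM, and Snap25 and Syt1 lie near 0.1 FPKM or below.

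Among membrane SNAREs the broadly expressed forms were abundant and the neuronal ones were mostly scarce. In the SNAP-25 family Snap47 led with 112 and 105 FPKM in WT and 108 and 107 FPKM in CD38 KO. Snap23, the plasma membrane partner of many non-neuronal cells, had an overall mean of 24.1 FPKM, and Snap29, which acts on endosomes and autophagosomes, 14.0 FPKM. Snap25 was at 0.116 FPKM in WT 1, at 0 in the table of WT 2, and 0.0937 and 0.0529 FPKM in CD38 KO. The Snap25 value of WT 1 stands for 2.64 to 14.7 fragments, depending on which annotated transcript is assumed, so no genotype difference was detectable at this depth. The ranges of Snap47, Snap23, Snap29 and Snap25 over the 4 libraries did not overlap, so this order held within every library.

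The syntaxins showed a similar order. Stx4a, which mediates fusion at the plasma membrane, had a mean of 69.4 FPKM, and Stx2, Stx3, Stx1a and Stx11 followed at 10.4, 5.25, 2.78 and 2.13 FPKM. The ranges of Stx1a and Stx11 overlapped, and the others were apart from their neighbours. Stx19 reached only 0.0130 to 0.0282 FPKM. Endosomal Stx7 (59.0 FPKM) and the early secretory Stx5a (37.4 FPKM) led their groups.

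The vesicle SNAREs did not follow the pattern of Snap25. Vamp2, the main synaptic vesicle SNARE of neurons, was the most abundant at 87.7 and 89.0 FPKM in WT and 85.7 and 93.7 FPKM in CD38 KO, ahead of Vamp3 with a mean of 50.7 FPKM. Vamp4, Vamp8, Vamp5, Vamp7 and Vamp1 had means of 37.6, 19.1, 13.3, 9.46 and 4.30 FPKM, each apart from its neighbours in this order, and Vamp9 was below the 1 FPKM threshold. Vamp7 is placed on an unplaced scaffold of the assembly. The disassembly factors Napa and Nsf had means of 55.5 and 12.8 FPKM. Stxbp6 and Stxbp2 led the syntaxin-binding proteins at 39.8 and 36.8 FPKM with overlapping ranges, ahead of Stxbp3 (16.2 FPKM).

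Calcium sensing and cargo genes were unequal in the same way. Syt11, which lacks the calcium binding of fast synaptotagmins, had a mean of 139 FPKM, and Syt12 and Syt17 followed at 21.6 and 21.4 FPKM with overlapping ranges. Of the 17 synaptotagmins 10 fell below 1 FPKM. Among them Syt1, the fast sensor of neurons, was at 0.114 and 0.0773 FPKM in WT and 0.0978 and 0.120 FPKM in CD38 KO, Syt2 at 0.0111 to 0.150 FPKM and Syt10 at or below 0.0444 FPKM. Syt7, a slow high-affinity sensor, was at 0.692 and 0.846 FPKM in WT and 1.03 and 1.32 FPKM in CD38 KO, just below the threshold for testing. Granins were led by Scg5 and Scg3, with means of 54.2 and 38.3 FPKM, whereas Chgb, Scg2 and Chga had 2.46, 0.902 and 0.5 FPKM. The recycling Rab11a (150 FPKM) and Rab31 (146 FPKM) were the most abundant Rabs. Rab3a, the synaptic vesicle Rab, had 12.6 FPKM, and Rab3b and Rab3c were at 0.319 and 0.00641 FPKM.

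Between the genotypes, 7 of the 70 tested members were higher in CD38 KO and 6 were lower, by limma on log2(FPKM + 1) at an adjusted p under 0.05 over all 13064 tested genes. These are 10.0% and 8.57% of the tested members, where 8.00% of all tested genes were called higher and 6.35% lower. In either direction 18.6% of the members were called against 14.4% of all tested genes. Called members changed by 1.21-fold to 1.92-fold in mean FPKM, none reached 2-fold, and the median change over the 70 members was -0.01 on the log2(FPKM + 1) scale, beside 0.00 for all tested genes. The median size of change, whatever its sign, was 0.16 for members and 0.12 for all tested genes. A log2 change beyond 1 in size was seen in 0 members and in 426 of all tested genes, 3.26%. The 2 libraries of a genotype lay wholly above or below those of the other in 50 members, which is 71.4% against 59.9% of all tested genes. Of these, 24 were higher and 26 lower in CD38 KO, where 30.4% and 29.5% of all tested genes were.

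**Figure D2:**
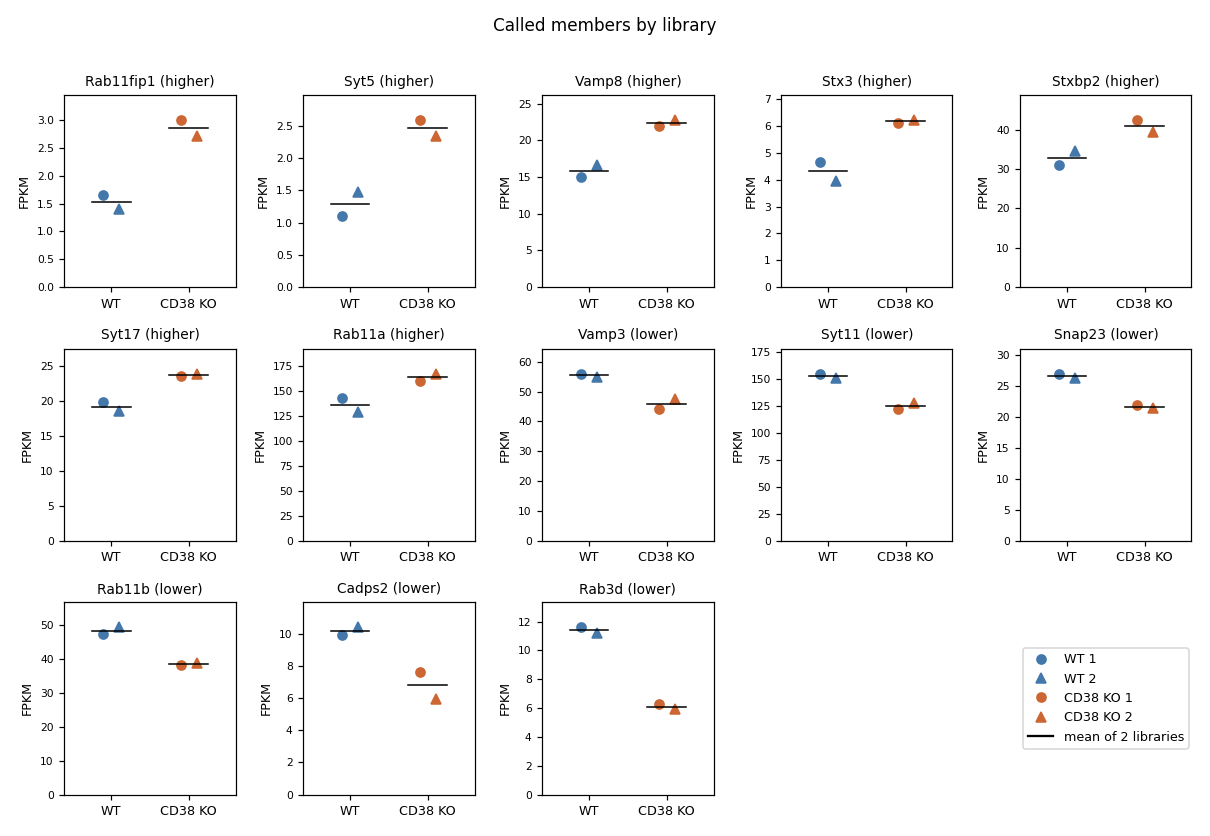
FPKM of the 13 called members in each library, with an axis from 0 in every panel. Black lines are means of 2 libraries. In every panel both libraries of one genotype lie above both of the other, and the mean of Rab3d is 11.4 FPKM in WT and 6.11 FPKM in CD38 KO.

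Rab3d had the most pronounced decrease. Rab3d (ENSMUSG00000019066, GRCm38 chromosome 9, 21907491 to 21918192, minus strand) encodes a GTPase of secretory granules best known from exocrine and mast cells. It was at 11.6 and 11.2 FPKM in WT and 6.27 and 5.94 FPKM in CD38 KO. Both CD38 KO libraries were low, and the genotypes were far apart relative to the difference between replicates. The mean fell 1.87-fold, with a change of -0.80 in log2(FPKM + 1) (SE 0.07, 95% interval -0.98 to -0.63, limma adjusted p = 0.00174). Rab3d changed by -0.84 to -0.77 over the 4 fits with 1 library left out. Its close relative Rab3a was at 11.1 and 12.8 FPKM in WT and 14.0 and 12.5 FPKM in CD38 KO, where the genotypes overlapped and the test was not passed (log2 change 0.14, 95% interval -0.09 to 0.37, limma adjusted p = 0.359). In CD38 KO both Rab3d values lay under both Rab3a values, while in WT the ranges of the 2 genes overlapped.

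The vesicle SNAREs Vamp8 and Vamp3 moved in opposite directions. Vamp8 (ENSMUSG00000050732, chromosome 6, 72385223 to 72390703), a SNARE of late endosomes and of granules in blood cells, was at 15 and 16.6 FPKM in WT and 22.0 and 22.8 FPKM in CD38 KO. Both CD38 KO libraries were high, and the change was 0.48 in log2(FPKM + 1) (SE 0.07, limma adjusted p = 0.0101), a 1.42-fold increase. With 1 library left out, Vamp8 stayed called without WT 2 (adjusted p = 0.0326) but not without WT 1, CD38 KO 1 or CD38 KO 2 (0.0572, 0.0949 and 0.101). Vamp3 (ENSMUSG00000028955, chromosome 4, 151047300 to 151057963), cellubrevin, the vesicle SNARE of recycling endosomes, was at 56.0 and 54.9 FPKM in WT and 44.3 and 47.5 FPKM in CD38 KO. Both CD38 KO libraries were low, with a change of -0.27 (SE 0.05, limma adjusted p = 0.0268) that was not called in any of the 4 fits without 1 library (0.0738 to 0.134). Vamp3 overlaps Camta1 on the same strand, so its fragments can be shared with that gene. Vamp2 did not pass the test (log2 change 0.02, 95% interval -0.12 to 0.16, limma adjusted p = 0.841).

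At the plasma membrane, Snap23 fell and Stx3 rose. Snap23 (ENSMUSG00000027287, chromosome 2, 120567671 to 120601255) stood at 27.0 and 26.3 FPKM in WT and 21.9 and 21.4 FPKM in CD38 KO. The replicates were close and the genotypes did not overlap, with a change of -0.29 in log2(FPKM + 1) (SE 0.05, limma adjusted p = 0.02). Stx3 (ENSMUSG00000041488, chromosome 19, 11775118 to 11819403), a syntaxin of apical membranes and granules, was at 4.66 and 3.97 FPKM in WT and 6.13 and 6.24 FPKM in CD38 KO, with a change of 0.44 (SE 0.10, limma adjusted p = 0.0368, and 0.0639 with quantile normalization). Neither call was kept in any fit without 1 library (adjusted p 0.0962 to 0.119 for Snap23 and 0.0718 to 0.178 for Stx3). The usual plasma membrane partner of Snap23, Stx4a, did not pass the test (log2 change -0.08, 95% interval -0.21 to 0.06).

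Stxbp2 rose, and Stx11 missed the threshold. Stxbp2, or Munc18-2 (ENSMUSG00000004626, chromosome 8, 3630955 to 3643644), and syntaxin 11 work together in granule release by cytotoxic lymphocytes. Stxbp2 was at 30.9 and 34.5 FPKM in WT and 42.5 and 39.5 FPKM in CD38 KO, both higher than in WT (log2 change 0.32, SE 0.07, limma adjusted p = 0.0400, and 0.0696 to 0.213 without 1 library). Stx11 was at 1.63 and 1.54 FPKM in WT and 2.96 and 2.40 FPKM in CD38 KO, a change of 0.51 (95% interval 0.19 to 0.82, limma adjusted p = 0.0528), which passed the threshold with robust moderation and without a trend. Rab38, a Rab of lysosome-related organelles, was at 0.547 and 0.277 FPKM in WT and 1.54 and 1.46 FPKM in CD38 KO. Its mean of 0.957 FPKM kept it out of the test, and the CD38 KO values stand for 17.5 to 63.0 fragments depending on the transcript assumed. The 7 members called higher were Vamp8, Stx3, Stxbp2, Syt5, Syt17, Rab11a and Rab11fip1. These members, and Stx11 and Rab38, had both CD38 KO libraries above both WT libraries, as did 30.4% of all tested genes. Such separation is likely in genes picked for being higher, so it adds nothing to the calls. The same held for 16 of 16 tested microglia and macrophage markers, whose summed level went from a mean of 176 to 962 FPKM. Any link between the members and these markers was not tested.

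**Figure D3:**
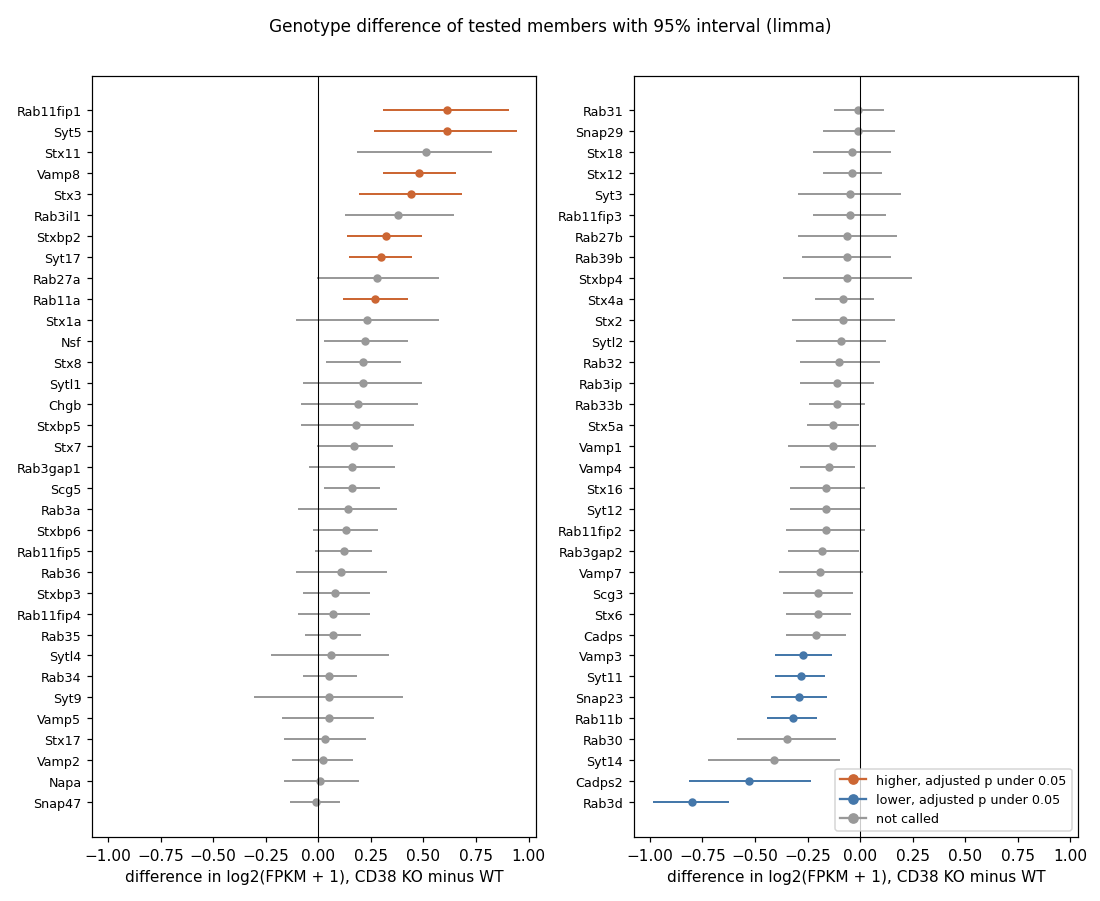
Difference in log2(FPKM + 1) between CD38 KO and WT for 68 of the tested members, with 95% intervals from limma, ordered from the highest at upper left to the lowest at lower right. Orange and blue mark members called higher and lower, and grey those not called. The called members run from -0.80 for Rab3d to 0.61 for Rab11fip1 and Syt5.

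In the synaptotagmin family 3 of 7 tested genes were called, 2 higher and 1 lower, beside 14.4% of all tested genes. With 7 genes this count is a description. Syt11 (ENSMUSG00000068923, chromosome 3, 88744700 to 88775164), the most abundant of the family, fell from 155 and 151 FPKM in WT to 122 and 128 FPKM in CD38 KO (log2 change -0.28, SE 0.04, limma adjusted p = 0.0139). Syt17 (ENSMUSG00000058420, chromosome 7, 118380717 to 118448222), a palmitoylated relative found on Golgi and other membranes, rose from 19.8 and 18.5 to 23.5 and 23.9 FPKM (log2 change 0.30, SE 0.06, limma adjusted p = 0.0278). Syt5 (ENSMUSG00000004961, chromosome 7, 4539765 to 4547541), a calcium sensor of dense-core granules, rose from 1.11 and 1.47 to 2.60 and 2.35 FPKM. Its change was 0.61 (SE 0.13, limma adjusted p = 0.0391), a 1.92-fold increase that rests on low levels. The 3 genes had replicates that kept to their own side, yet none was called in a fit without 1 library (adjusted p 0.0625 to 0.097 for Syt11, 0.0712 to 0.153 for Syt17 and 0.0744 to 0.169 for Syt5). The other 4 tested synaptotagmins, Syt3, Syt9, Syt12 and Syt14, were not called. The summed level of all 17 was 208.5 and 201.1 FPKM in WT and 178.1 and 183.4 FPKM in CD38 KO, and Syt11 made up most of it in each library.

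Of the 2 dense-core vesicle priming factors, 1 was called lower in CD38 KO, where 6.35% of all tested genes were. Cadps2, or CAPS2 (ENSMUSG00000017978, chromosome 6, 23262773 to 23839421), stood at 9.92 and 10.4 FPKM in WT and 7.64 and 5.95 FPKM in CD38 KO. The CD38 KO replicates differed more from each other than the WT replicates did, and the change was -0.53 in log2(FPKM + 1) (SE 0.12, limma adjusted p = 0.0379). Without CD38 KO 2 the change was -0.37 (0.124), and without CD38 KO 1 it was -0.68 (0.0526), in a range of 0.0526 to 0.186 over the 4 fits without 1 library. Cadps, or CAPS1, was at 21.9 and 23 FPKM in WT and 18.8 and 19.7 FPKM in CD38 KO and did not pass the test (log2 change -0.21, 95% interval -0.35 to -0.07, limma adjusted p = 0.0662).

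None of the 3 tested granins was called, beside 14.4% of all tested genes, and so few genes make this a description. Scg5, the chaperone of prohormone convertase PC2, was at 50.8 and 51.5 FPKM in WT and 55.1 and 59.3 FPKM in CD38 KO (log2 change 0.16, limma adjusted p = 0.112). Scg3, a granin that binds cholesterol in granule membranes, was at 38.8 and 43.3 FPKM in WT and 35.1 and 36.0 FPKM in CD38 KO (log2 change -0.20, limma adjusted p = 0.106). Chgb was at 2.34 and 2.10 FPKM in WT and 2.54 and 2.83 FPKM in CD38 KO (log2 change 0.19, 95% interval -0.08 to 0.47). The genotypes did not overlap for these 3 genes, 2 higher and 1 lower in CD38 KO, as for 59.9% of all tested genes. Scg2, at 0.693 and 0.957 FPKM in WT and 1.05 and 0.906 FPKM in CD38 KO, and Chga, at 0.477 and 0.310 against 0.570 and 0.641 FPKM, were below the level tested.

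The recycling Rabs Rab11a and Rab11b changed in opposite directions, and their upstream windows are printed above. Rab11a (ENSMUSG00000004771, chromosome 9, 64715299 to 64737758), which drives traffic from recycling endosomes to the surface, rose from 143 and 129 FPKM in WT to 160 and 167 FPKM in CD38 KO (log2 change 0.27, SE 0.06, limma adjusted p = 0.0398). Rab11b (ENSMUSG00000077450, chromosome 17, 33742484 to 33760530) fell from 47.4 and 49.4 to 38.2 and 38.8 FPKM (log2 change -0.32, SE 0.05, limma adjusted p = 0.0106). Rab11a therefore made up 75.0% and 72.3% of the summed FPKM of both genes in WT and 80.8% and 81.2% in CD38 KO. The sum itself was 190 and 178 FPKM in WT and 198 and 206 FPKM in CD38 KO. Neither gene was called in a fit without 1 library (adjusted p 0.0520 to 0.199 for Rab11a and 0.0512 to 0.0944 for Rab11b). Whether the authors' software used strand is not given in the sources used here. Rab11b overlaps the transcript Gm17251 on the opposite strand and has the related pseudogene Rab11b-ps2 (0.535 and 0.658 FPKM in WT, 0.0711 and 0.637 FPKM in CD38 KO), so its fragments can be assigned to more than 1 gene.

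Of the Rab11 effectors, which link the GTPase to motors, only Rab11fip1 was called among 5 tested, beside 14.4% of all tested genes. Rab11fip1 (ENSMUSG00000031488, chromosome 8, 27138773 to 27174646) stood at 1.66 and 1.41 FPKM in WT and 3.01 and 2.71 FPKM in CD38 KO, a 1.86-fold increase (log2 change 0.61, SE 0.12, limma adjusted p = 0.0268). It was the most changed of the higher members with Syt5 but was not called in any fit without 1 library (0.0733 to 0.132). Rab11fip5, the most abundant of these effectors, was at 18.2 and 17.7 FPKM in WT and 19.6 and 19.5 FPKM in CD38 KO and did not pass (log2 change 0.12, 95% interval -0.01 to 0.25).

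**Figure D4:**
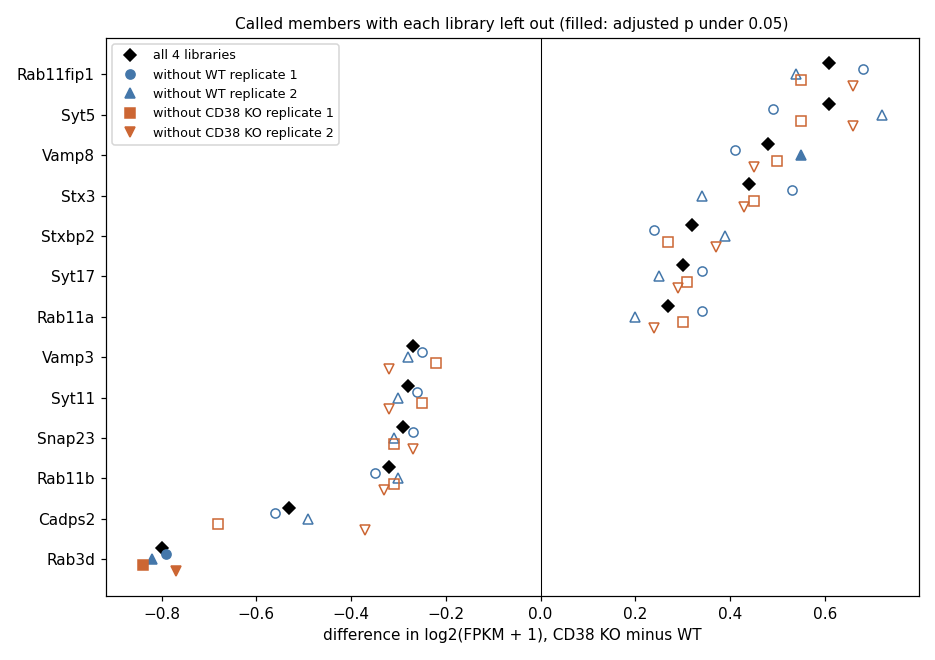
Difference in log2(FPKM + 1) between CD38 KO and WT for the 13 called members with all 4 libraries (black) and with each library left out, filled where the adjusted p is under 0.05. Directions are the same in all 5 fits, and most symbols of the reduced fits are open.

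Of 19 genes of calcium-triggered release 12 were tested, with Syt5 higher, Cadps2 lower and 10 not called. Over all tested genes 14.4% were called. Stx1a was at 2.34 and 2.58 FPKM in WT and 3.51 and 2.67 FPKM in CD38 KO (log2 change 0.23, limma adjusted p = 0.304). The 95% intervals were -0.34 to 0.07 for Vamp1, -0.29 to 0.19 for Syt3, -0.30 to 0.40 for Syt9 and -0.29 to 0.17 for Rab27b. The list of constitutive and endosomal fusion genes holds 23 genes, all tested. Stx3, Vamp8 and Stxbp2 were higher, Snap23 and Vamp3 lower and 18 not called, with a median log2 change of -0.01. The higher genes of this list also act at granules, as described above, so the 2 lists are not strictly separate in function. For 51 of the 57 members not called the 95% interval lay within 0.5 on either side of 0.

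Rabs outside Rab3 and Rab11 showed no called change, nor did the 4 regulators of Rab3, beside 14.4% of all tested genes. With so few genes in each group these counts of 0 are descriptions. Rab3gap1, a subunit of the complex that inactivates Rab3 and the most abundant regulator, was at 20.4 and 17.5 FPKM in WT and 21.3 and 21.2 FPKM in CD38 KO (log2 change 0.16, limma adjusted p = 0.249). Rab3il1, an exchange factor, was at 4.80 and 4.45 FPKM in WT and 6.91 and 5.80 FPKM in CD38 KO (log2 change 0.38, 95% interval 0.13 to 0.64, limma adjusted p = 0.0649). The genotypes did not overlap for any of the 4 regulators, 2 higher and 2 lower in CD38 KO, as for 59.9% of all tested genes. Rab27b and Rab27a, which tether granules at the cell surface, had means of 5.50 and 2.60 FPKM. Rab27a was at 2.16 and 2.33 FPKM in WT and 2.7 and 3.20 FPKM in CD38 KO (log2 change 0.28, 95% interval -0.00 to 0.57, limma adjusted p = 0.168). Sytl2, the most abundant Rab27 effector of the Sytl family, was at 17.3 and 15.8 FPKM in WT and 14.5 and 16.6 FPKM in CD38 KO, with overlapping genotypes. Of Rab30 to Rab39, 0 of 8 tested genes were called, and the 95% interval of the abundant Rab31 was -0.12 to 0.11. Rab30, a Golgi Rab, was at 25 and 21.5 FPKM in WT and 17.0 and 19.1 FPKM in CD38 KO, without overlap (log2 change -0.35, 95% interval -0.58 to -0.12, limma adjusted p = 0.0649, and 0.0169 to 0.287 over its alternatives). By unadjusted p under 0.05 in the same limma fit, 28 of the 70 members passed, 40.0%, against 30.3% of all tested genes.

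Stx18, an endoplasmic reticulum syntaxin, is the member nearest to Cd38, 5.73 Mb away on chromosome 5. It was at 24.5 and 25.7 FPKM in WT and 25.8 and 22.9 FPKM in CD38 KO, and the genotypes overlapped. Of the 4 tested members on that chromosome 0 were called, beside 14.4% of all tested genes. So few genes make this count a description, and Rab35, Stx2 and Stx1a lie much farther from Cd38.

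Other genes of the secretory pathway gave 5 higher and 1 lower of 87 tested, 6.90% beside 14.4% of all tested genes, and whether this share differs from that of the members was not tested. None of the 19 other SNAREs and Sec1/Munc18 genes and none of the 16 exocyst and tethering genes was called. Among priming and fusion regulators, Rims3, an active zone protein, rose from 1.03 and 1.22 to 2.51 and 2.22 FPKM (log2 change 0.66, limma adjusted p = 0.0251), 1 of 9 tested. Among other secretory Rabs and their regulators, Rab6b, a Golgi Rab, was the 1 higher gene of 19 (log2 change 0.38, limma adjusted p = 0.0373). Of 11 tested genes for vesicle membrane proteins and transmitter loading, Svop (log2 change 0.44) and Syngr1 (0.31) were higher, and Slc17a8, the vesicular glutamate transporter VGLUT3, fell from 2.77 and 2.59 to 1.37 and 1.51 FPKM (limma adjusted p = 0.0243). Of 13 tested genes for neuropeptides and their processing, Cpd, carboxypeptidase D, rose from 8.66 and 8.46 to 15.8 and 15.2 FPKM (log2 change 0.79, limma adjusted p = 0.00119) and was called in all 4 fits without 1 library. Rims3, Rab6b, Syngr1 and Slc17a8 were called in none of those fits and Svop in 1. Cpe, carboxypeptidase E, the main processing enzyme of regulated granules, was at 689 and 702 FPKM in WT and 695 and 710 FPKM in CD38 KO.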

How the data were processed

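RNA was read from 2 WT and 2 CD38 KO libraries, stranded and selected for polyA, per the labels' protocols. Deposited values are FPKM per gene, per the file headers. Tools, per the submitters' processing notes, were Cufflinks 2.2.1, STAR 2.7.0f and bcl2fastq 2.17 on GRCm38. For the annotation release and any scaling, the answer is not given in the sources used here. Gene positions came from GENCODE M21, which matched all 99 members.

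Genes averaging 1 FPKM or more across libraries entered limma 3.58.1 (R 4.3.3) on log2(FPKM + 1), with a genotype term alone, trended moderation and Benjamini-Hochberg adjustment over 13064 genes at 0.05; the fit was tested on simulated data. Fold changes are ratios of mean FPKM, and log2 changes understate those of low genes. No count test was run, since values are not counts. Depth was fitted from the steps of low values in 17493 genes with 1 annotated transcript, where 91.7% to 92.3% of values below 10 fragments lay within 0.1 of a whole number. It covers counting error only. Members and gene lists were chosen with earlier results of these data known. Text names every called member, the most abundant member of each role group, the genes of calcium-triggered release (2 members are not reported here by name but stay in all counts), and up to 4 called genes of each other list; Stx11, Rab38, Rab30, Rab3il1, Stx18, Cpe and further genes were named after their values were seen. Lists were described by counts, without set tests. Alternatives varied the value added before the log, the filter, the scaling, the replicate block and the moderation, or left out 1 library. Sequences are from RefSeq (GRCm38.p6). Python 3.11.15 with pandas 2.3.3, numpy 2.4.6 and matplotlib 3.10.9 was used.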

Additional observations from a re-analysis of the deposited data

How the results depend on the processing

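The 13 called members kept their direction under all alternatives that tested them, while the calls themselves often ended. A filter of 5 FPKM left Rab11fip1 and Syt5 out of the fit. Without a filter, where 26654 genes shared the adjustment, 0 members were higher and 2 lower (Rab3d and Rab11b), with 430 higher and 312 lower genes in all and 1 higher and 0 lower among the other pathway genes. With 1 library left out, 0 to 1 members were higher and 1 was lower, all genes gave 306 to 458 higher and 225 to 284 lower, and the other pathway genes 1 to 2 higher and 0 lower; fewer samples entered these fits, and a lone library was assumed to vary like the other genotype. With the replicate number as a block, 1 member was higher and 3 lower, all genes gave 610 and 427, and the other pathway genes 3 and 0. Deviations of same-numbered libraries correlated at r = -0.161 across genes, which are not independent replicates, so the labels' numbers give no pairing. A crossed block, added after seeing the data, gave 1102 higher and 859 lower genes, 7 and 7 members, and 3 lower other pathway genes. Lower other pathway genes numbered 0 at a filter of 5 FPKM and 2 with quantile normalization. Without a trend 818 genes were higher and 619 lower, with 5 and 4 members; 7 of the 13 calls were kept, 6 ended (Rab11a, Syt17, Stxbp2, Syt11, Vamp3 and Cadps2) and those of Stx11 and Syt14 were added. The sign of small changes of members not called turned for Syt9 with quantile normalization (-0.02) and, over the fits without 1 library, for Syt9 (-0.08 to 0.18), Rab31 (-0.05 to 0.03), Snap47 (-0.06 to 0.03), Napa (-0.06 to 0.08), Rab27b (-0.14 to 0.02), Sytl2 (-0.18 to 0.00) and Vamp2 (-0.04 to 0.08). Robust moderation added Stx11, and the crossed block Rab30. Median-of-ratios scaling, other values added before the log (0.1 and 0.5) and robust moderation ended no call of a named member, and quantile normalization ended that of Stx3. The cause of these shifts was not tested. Below 1 FPKM levels rest on few fragments, as for Snap25.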
